A study of Mus musculus with 12 samples.

Results

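The genotype by diet interaction asks, for each gene, whether the difference between livers labelled HuRHep-/- and WT livers was another after a fat-, cholesterol- and fructose-rich diet (HFCF) than on chow. It was computed as the HFCF difference minus the chow difference on the log2 scale, over all 12 libraries of the series, and 14535 of the 20093 genes listed for both diets had enough counts to be tested. A positive value means that the difference lay higher in HFCF than in chow. Bulk RNA was sequenced from whole liver of male C57BL/6N mice with both copies of Elavl1 floxed, 3 mice in each of 4 groups. Chow WT mice had received AAV8-Tbg-null, a virus without Cre, and chow HuRHep-/- mice AAV8-Tbg-Cre, at 4 to 6 months of age. HFCF WT and HFCF HuRHep-/- mice had the same viruses at the same age, and 16 weeks of the HFCF diet. The Tbg promoter drives Cre in hepatocytes, so other liver cells keep the gene, and the WT mice are floxed too. The study's methods describe a cross with albumin-Cre mice instead, and the labels are followed here.

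HuR, the protein that Elavl1 encodes, binds AU-rich and U-rich stretches of RNA and mostly slows the decay of the transcripts it holds. Hepatocytes carry much of the liver's lipid, bile acid and drug metabolism, and their output depends on nutrients, inflammation and hormones. A diet rich in fat, cholesterol and fructose feeds lipid into these cells, lowers their own sterol synthesis and over weeks can bring inflammation and scarring. In male rodents, growth hormone is released in pulses, and hepatocytes answer through STAT5B with genes such as the major urinary proteins, which females, whose secretion is more continuous, express less.

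Elavl1 RNA went against the labels in both diets. Its normalized counts, scaled to a common library size, were 1058, 998 and 1063 in chow WT and 1461, 1339 and 1327 in chow livers labelled HuRHep-/-, and 810, 825 and 918 in HFCF WT and 1093, 1087 and 1146 in HFCF livers labelled HuRHep-/-. In each diet every liver labelled HuRHep-/- lay above every WT liver. The log2 difference was 0.40 in chow (adjusted p = 0.00652) and 0.38 in HFCF (adjusted p = 0.00642), and the interaction was -0.02 (95% interval -0.23 to 0.19). A count over the whole gene cannot tell a transcript without the floxed part from an intact one, so every direction given for "HuRHep-/-" is that of the libraries labelled so.

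Total counts ran from 30071731 to 35949203 per library. Each diet has a table of its own, and diet and table cannot be told apart, but the interaction compares genotype differences taken within a table. In the first principal component, which held 45.9% of the variance, chow livers lay at -56.1 to -21.5, HFCF WT at -11.1 to 35.1 and HFCF livers labelled HuRHep-/- at 56.4 to 65.7. HFCF WT replicate 3 stood apart in genes that pulsatile growth hormone favours in males, and values without it are given beside several of them. It was singled out after these values were seen, so smaller p-values without it are no separate support. In the 18 tested genes that continuous growth hormone favours in females, it lay above the other HFCF WT livers and below those labelled HuRHep-/- in 2 (11.1%). Over all genes tested that share was 8.84%.

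No gene passed the interaction test at an adjusted p of 0.05 and a 1.5-fold difference. limma called 0 of 14535 genes, 0% of those tested. The smallest adjusted p was 0.0714, shared by 11 genes, and 32 genes reached 0.1 with a 1.5-fold difference, a limit chosen after the values were seen. At an unadjusted p of 0.05, 2123 genes (14.6%) passed. Voom weights and a fit without the filter on low counts each called 1 gene, Cap2, and the other scalings, filters and pseudocount tried called 0. Without HFCF WT replicate 3 limma called 40 genes, 28 of them lower, including 12 Mup genes and 2 Mup pseudogenes. Without chow WT replicate 2 it called Hectd2os and Gm2260, and without chow HuRHep-/- replicate 3 it called Gm49388. With all 12 libraries, every single interaction value given here missed the adjusted threshold and is a description.

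Within the diets, where 3 livers are set against 3, the same fit called 218 genes higher (1.5% of those tested) and 184 lower (1.27%) in chow livers labelled HuRHep-/-. In HFCF it called 468 higher (3.22%) and 286 lower (1.97%). Of these, 146 genes were called in both diets, 145 of them in the same direction. A call in 1 diet alone does not show that the diets differ. The 402 chow calls became 248 without chow WT replicate 1, 249 without chow WT replicate 3 and 191 without chow HuRHep-/- replicate 1 or 2. The 754 HFCF calls became 490 without HFCF WT replicate 1, 349 without HFCF WT replicate 2, and 289, 429 and 398 without HFCF HuRHep-/- replicate 1, 2 and 3.

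Genes were sorted, by limits chosen after the values were seen, on an unadjusted interaction p of at most 0.05 and a 1.5-fold interaction, which 646 genes met in the higher direction (4.44%) and 319 in the lower (2.19%). A genotype difference counted as present in a diet at an unadjusted p of at most 0.05 and 1.5-fold. It appeared in HFCF for 482 genes (377 higher, 105 lower), was present in chow and vanished in HFCF for 184 (82 higher, 102 lower in the interaction), and reversed for 25 (20 higher, 5 lower). In 18 genes it was present in both diets in 1 direction, and in 256 it was present in neither. The count of genes in which it appeared was 307 without HFCF WT replicate 2 and 751 without HFCF WT replicate 3. The count of reversed genes was 16 without HFCF WT replicate 2, 16 without HFCF HuRHep-/- replicate 1 and 40 without chow WT replicate 1.

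**Figure D1:**
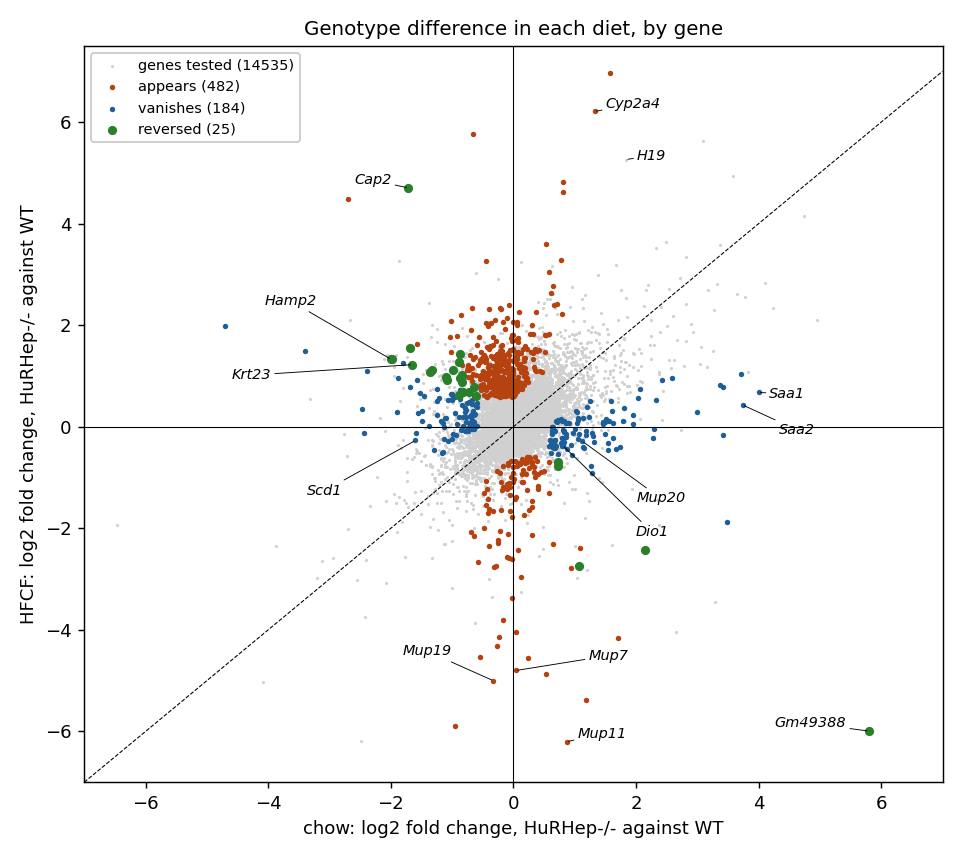
Each point is 1 of 14535 genes, with the log2 fold change between livers labelled HuRHep-/- and WT on chow (x axis) and on HFCF (y axis); the dashed line marks equal differences. Of genes with an unadjusted interaction p of at most 0.05 and a 1.5-fold interaction, 482 in which the difference appeared in HFCF lie along the vertical axis, 184 in which it vanished along the horizontal axis, and 25 reversed in the upper left and lower right, with Mup11, at 0.87 and -6.20, far below the line.

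Among the gene lists, cell type markers aside, the median interaction was largest in size for genes that pulsatile growth hormone favours in males. All 40 listed genes were tested, and in chow 1 was called higher and 1 lower, while in HFCF 25 were called lower and 0 higher. The chow calls were lost in part or whole when 1 chow library was left out, the higher one without chow WT replicate 1 or 3 or chow HuRHep-/- replicate 1 and the lower one without chow WT replicate 3 or chow HuRHep-/- replicate 1 or 2. Their median log2 difference was -0.08 in chow and -1.91 in HFCF, and the median interaction was -1.8, against -0.01 over all genes tested. The chow median lay between -0.214 (without chow HuRHep-/- replicate 3) and 0.199 (without chow HuRHep-/- replicate 1) when 1 library was left out, and the interaction median between -2.20 and -1.40. In 26 of the 40 the unadjusted interaction threshold was met, each time lower, and in 23 of these the difference appeared in HFCF. The HFCF count was 16 without HFCF WT replicate 1 and 15 without HFCF HuRHep-/- replicate 1, and the interaction count lay between 22 and 32 when any 1 library was left out. All 22 numbered Mup genes of the list lie in a cluster of near copies and may share reads, so they are not 22 separate observations.

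The promoters of a pair of these genes show how alike the copies are. The 250 bases before the RefSeq start (GRCm38.p6, minus strand) are given for Mup11 at chr4:60662396-60662645 and Mup19 at chr4:61782225-61782474, 5′ to 3′, with capitals for the longest run of letters that both windows hold, 168 bases.
Mup11: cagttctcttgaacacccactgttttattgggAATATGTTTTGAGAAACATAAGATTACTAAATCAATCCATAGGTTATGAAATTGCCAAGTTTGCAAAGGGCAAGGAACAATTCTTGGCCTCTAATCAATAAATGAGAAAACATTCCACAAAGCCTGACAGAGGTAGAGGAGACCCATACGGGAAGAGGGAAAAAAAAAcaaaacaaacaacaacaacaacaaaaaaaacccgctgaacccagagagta
Mup19: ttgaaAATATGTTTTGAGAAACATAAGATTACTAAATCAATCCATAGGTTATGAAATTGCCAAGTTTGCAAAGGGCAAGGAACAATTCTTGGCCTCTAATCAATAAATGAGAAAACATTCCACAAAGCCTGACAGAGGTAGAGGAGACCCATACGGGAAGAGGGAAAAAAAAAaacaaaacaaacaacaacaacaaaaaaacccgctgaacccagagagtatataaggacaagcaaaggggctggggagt
The same holds for the transcripts. Of all words of 31 bases in the longest transcript, 92.9% for Mup11 and 100% for Mup19 also occur in transcripts of other genes, so a count for 1 of them may hold reads of another.

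Mup11 encodes a major urinary protein, a pheromone carrier that the male liver secretes (chr4:60658466-60662411). Its normalized counts were 45963, 98926 and 28145 in chow WT and 59478, 102369 and 128448 in chow livers labelled HuRHep-/-, and 35769, 39163 and 3286 in HFCF WT and 160, 398 and 180 in HFCF livers labelled HuRHep-/-. The chow groups overlapped, the HFCF groups did not, and HFCF WT replicate 3 lay between the other HFCF WT livers and those labelled HuRHep-/-. The log2 difference was 0.87 in chow and -6.20 in HFCF (adjusted p = 0.00138), with an interaction of -7.07 ± 1.15 (SE; adjusted p = 0.0714). Without HFCF WT replicate 3 the interaction was -8.23 (adjusted p = 0.0019), and over all libraries left out in turn the adjusted p by limma ran from 0.0019 to 0.24. That library held the same middle place in 26 of the 40 genes of the list (65%), whereas each of the other HFCF WT libraries held it in 1 (2.5%). Over all 14535 genes tested, HFCF WT replicates 1, 2 and 3 lay between in this way, with the livers labelled HuRHep-/- lower, in 964 (6.63%), 628 (4.32%) and 1165 (8.02%).

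Mup19 and Mup22, near copies of Mup11, followed the same course. Mup19 had 86703, 81482 and 30506 normalized counts in HFCF WT and 1284, 2675 and 1917 in HFCF livers labelled HuRHep-/-, beside chow values that overlapped between 44329, 79963 and 27350 in WT and 19984, 51550 and 47454 in livers labelled HuRHep-/-. Its interaction was -4.67 ± 0.71 (adjusted p = 0.0714), and -5.15 (adjusted p = 0.015) without HFCF WT replicate 3. With each library left out in turn the adjusted p of Mup19 by limma ran from 0.015 to 0.211. For Mup22 the HFCF values were 191249, 220351 and 131215 in WT and 30731, 51843 and 34276 in livers labelled HuRHep-/-. The interaction was -1.97 ± 0.33 (adjusted p = 0.0919), and -2.18 (adjusted p = 0.0241) without HFCF WT replicate 3. With each library left out in turn the adjusted p of Mup22 by limma ran from 0.0241 to 0.24. Mup20, also called darcin, a pheromone that draws females, took another course and was named after its values were seen. Mup20 was called higher in chow, with 224735, 265395 and 235709 in WT and 568425, 521844 and 489037 in livers labelled HuRHep-/- (log2 difference 1.12, adjusted p = 0.0136). In HFCF its groups overlapped, with 455580, 249077 and 317055 in WT against 222005, 297784 and 302798 (log2 difference -0.28). The interaction of Mup20 was -1.40 with all libraries and -1.43 (adjusted p = 0.113) without HFCF WT replicate 3.

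Of the 18 male-biased genes outside the Mup cluster, 15 had a negative interaction and 3 a positive one, with a median of -1.07 beside -3.50 over the 22 Mup genes. In HFCF 6 of the 18 were called lower and 0 higher, and 8 met the unadjusted interaction threshold, all lower. The positive ones were Socs2, a suppressor of cytokine signalling, Keg1, an acyltransferase-like gene, and the growth factor Igf1, named here after their values were seen. Cyp2d9, a male-biased steroid hydroxylase (chr15:82433437-82456845) that shares 46.4% of its words with other genes, had 66914, 76883 and 58873 normalized counts in chow WT and 56635, 64870 and 71204 in chow livers labelled HuRHep-/-, overlapping, and 56045, 50268 and 37979 against 20965, 23119 and 22487 in HFCF, where every labelled HuRHep-/- liver lay below every WT liver. It fell in HFCF (log2 difference -1.10, adjusted p = 0.00162), with an interaction of -1.03 ± 0.21 (adjusted p = 0.109), and -1.18 (adjusted p = 0.0346) without HFCF WT replicate 3. C6, a complement component of the membrane attack complex, fell in HFCF by 1.65 on the log2 scale (adjusted p = 0.00112) beside -0.33 in chow. Susd4, a complement regulator, fell by 2.29 in HFCF (adjusted p = 0.00207) beside -0.24 in chow, and Slco1a1, an organic anion uptake transporter, by 2.65 (adjusted p = 0.0113) beside -0.58 in chow. For Hsd3b5, a male-specific hydroxysteroid dehydrogenase, HFCF values were 2485, 7060 and 195 in WT and 61.4, 185 and 279 in livers labelled HuRHep-/-, and its interaction of -3.003 (-4.47 to -1.89 with 1 library left out) had an unadjusted p of 0.0553. The interactions of C6 and Susd4 were -1.32 (adjusted p = 0.125) and -2.05 (adjusted p = 0.125), and without HFCF WT replicate 3 they were -1.55 (adjusted p = 0.0382) and -2.37 (adjusted p = 0.0467). Those of Slco1a1 and Hsd3b5 went from -2.08 (adjusted p = 0.258) to -2.66 (adjusted p = 0.11) and from -3.003 (adjusted p = 0.358) to -4.47 (adjusted p = 0.052). C6, Susd4, Slco1a1 and Hsd3b5 were named after their values were seen.

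**Figure D2:**
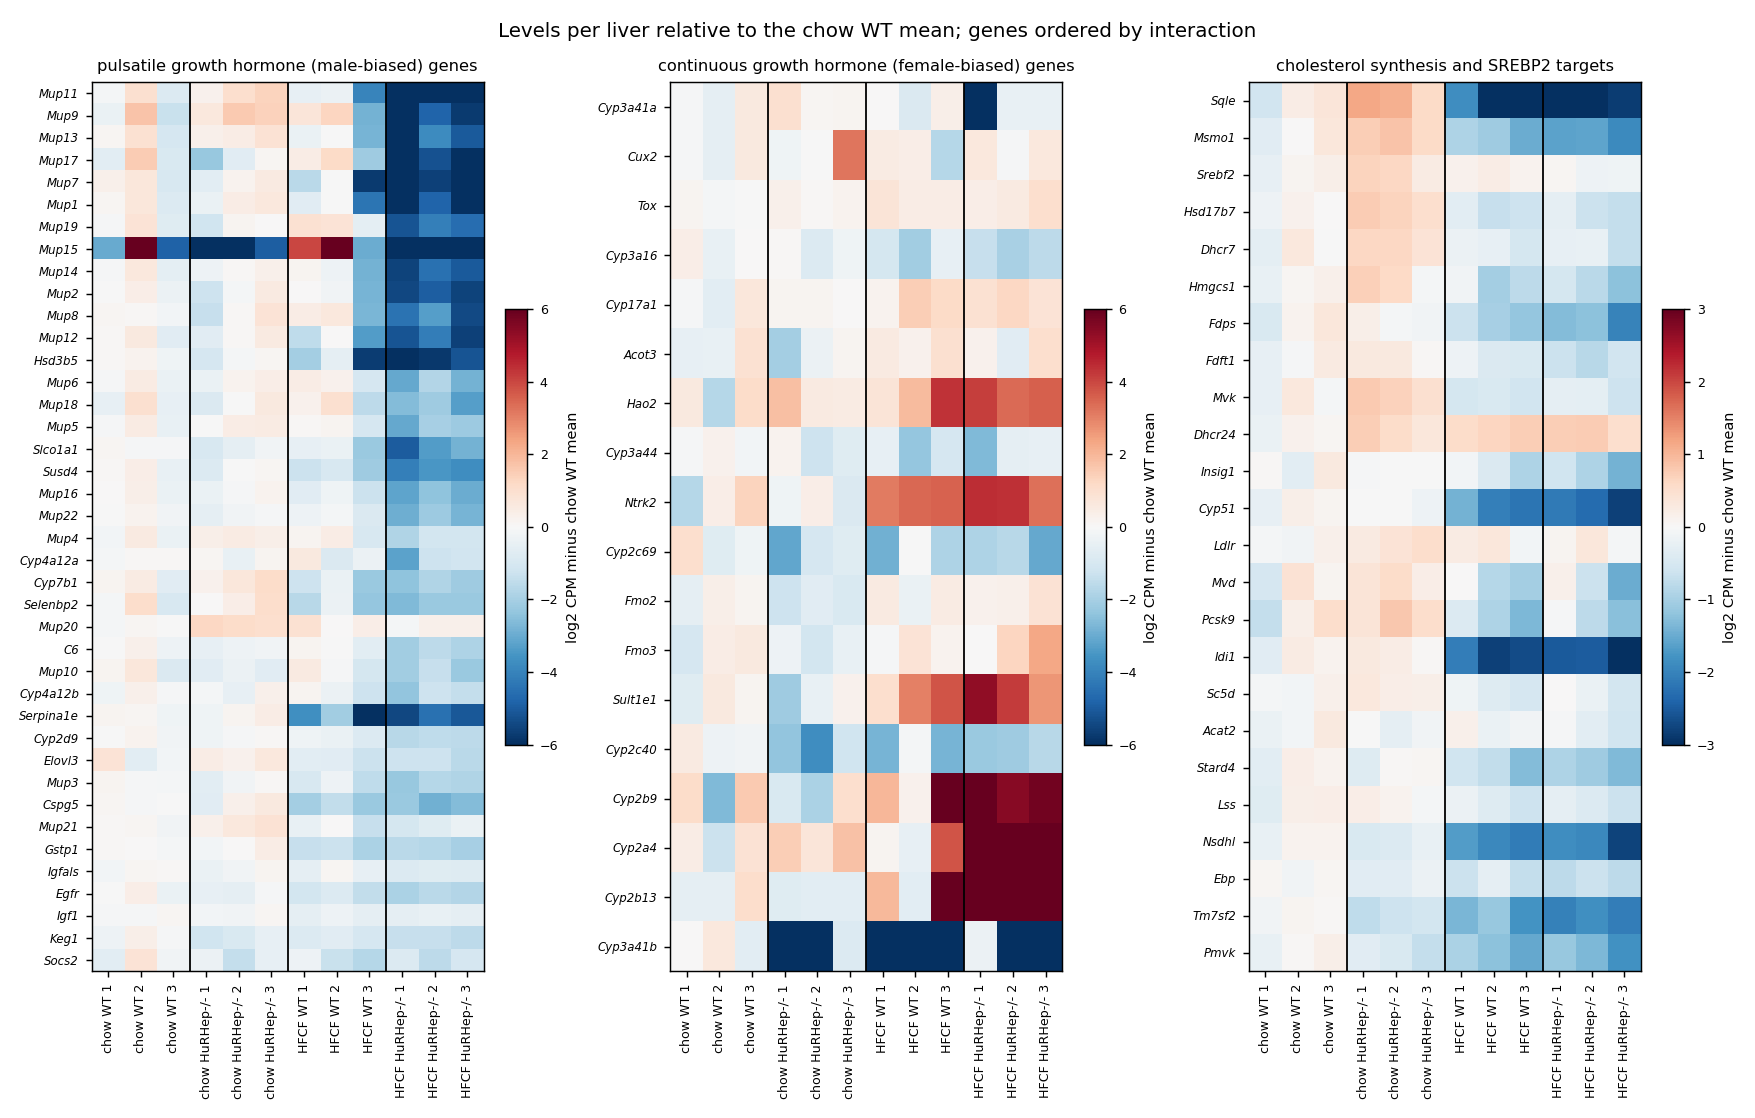
Each column is 1 liver and each line 1 gene, coloured by log2 CPM (counts scaled by library total) minus the mean of the 3 chow WT livers, for male-biased genes (left, scale ±6), female-biased genes (middle, ±6) and genes of cholesterol synthesis (right, ±3, with 1 tested gene of the list not drawn), where values past a scale take its end colour. Mup11 and most other Mup genes are lowest in the 3 HFCF livers labelled HuRHep-/-, and HFCF WT replicate 3 lies between them and the other HFCF WT livers. In Cyp2a4 and Cyp2b13, 2 of the 18 female-biased genes, the same liver is raised and lies between these groups.

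Genes that continuous growth hormone favours in females had fewer members over the interaction threshold. Of 22 listed, 18 were tested, 2 were called higher in HFCF, and 5 met the unadjusted interaction threshold, all higher, with a median interaction of 0.96 (0.35 among genes with at least 10 counts in every library). The interaction count was 3 without chow HuRHep-/- replicate 1 and also without chow HuRHep-/- replicate 2, and the HFCF count of 2 was 1 without HFCF WT replicate 1 or HFCF HuRHep-/- replicate 1 or 3. In 2 of the 5, Cyp2a4 and Cyp2b13, the difference appeared in HFCF, and in 3 it was present in chow and vanished. These 3, named after their values were seen, were Fmo2, a flavin monooxygenase, and the cytochromes Cyp2c40 and Cyp3a41b. Fmo2 and Cyp2c40 had log2 differences of -0.95 and -2.44 in chow (adjusted p = 0.0748 and 0.0638) and of 0.27 and -0.12 in HFCF. Cyp3a41b had 50.7, 77.5 and 32.5 normalized counts in chow WT, 0, 0 and 28.4 in chow livers labelled HuRHep-/-, 0 in all 3 HFCF WT livers and 39.6, 0 and 0 in HFCF livers labelled HuRHep-/-. Single livers carried its counts in both groups labelled HuRHep-/-, so no fold is given, and 95.9% of its words occur in other genes, mainly Cyp3a41a. Cyp2a4, a steroid hydroxylase of the female liver, had 28.2, 7.98 and 38.1 normalized counts in chow WT, 58.4, 34.9 and 71.6 in chow livers labelled HuRHep-/-, 23.3, 14.6 and 293 in HFCF WT and 5243, 2737 and 2975 in HFCF livers labelled HuRHep-/-. The HFCF groups stood far apart and the chow groups overlapped. Its log2 difference was 1.33 in chow and 6.21 in HFCF (adjusted p = 0.00262), and the interaction was 4.88 ± 1.28 (adjusted p = 0.16; without HFCF WT replicate 3, 6.21 and 0.015, with 0.015 to 0.338 over all libraries left out in turn by limma). It shares 58.1% of its words of 31 bases with other genes, mainly Cyp2a5. Cyp2b13, another female-biased cytochrome, had 2.69, 0 and 69.2 in HFCF WT and 448, 178 and 234 in HFCF livers labelled HuRHep-/-, with at most 1.12 in any chow liver. With at most 1 read in any chow liver no fold is given for its interaction, and 40.8% of its words occur in other genes, mainly Cyp2b10.

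Cholesterol synthesis genes lay mostly higher in chow and mostly lower in HFCF. All 25 listed SREBP2 targets were tested, 17 lay higher in chow livers labelled HuRHep-/- and 21 lower in HFCF ones, and 21 interactions were negative. The median log2 difference was 0.22 in chow and -0.21 in HFCF, with a median interaction of -0.46. Single livers moved these medians. The chow median was 0.0837 without chow WT replicate 1 and 0.339 without chow WT replicate 3. Without HFCF WT replicate 1 the HFCF median was -0.0491 and the interaction median -0.269, and without HFCF HuRHep-/- replicate 3 they were -0.0272 and -0.262. In chow 3 genes were called higher (Msmo1, Hsd17b7 and Mvk) and 1 lower (Tm7sf2), where Hsd17b7, Mvk and Tm7sf2 were named after their values were seen. Of the list, 6 genes met the unadjusted interaction threshold, all lower. That count was 2 without chow WT replicate 1, 3 without HFCF WT replicate 1 and 10 without chow HuRHep-/- replicate 3, and 0 genes were called higher in chow without chow WT replicate 1 or chow HuRHep-/- replicate 1 or 2, against 5 without chow HuRHep-/- replicate 3. Tm7sf2 was not called without chow WT replicate 2 or 3 or chow HuRHep-/- replicate 1 or 2.

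Msmo1, a methylsterol oxidase on the way from lanosterol to cholesterol (chr8:64718139-64733792), had 2510, 3174 and 3981 normalized counts in chow WT and 5304, 5724 and 4684 in chow livers labelled HuRHep-/-. In HFCF it had 1655, 1516 and 1136 in WT and 1042, 1049 and 846 in livers labelled HuRHep-/-. The groups did not overlap in either diet, and their order turned. Msmo1 rose in chow (log2 difference 0.72, adjusted p = 0.0314), its HFCF difference of -0.54 had an adjusted p of 0.0621, and the interaction was -1.26 ± 0.24 (adjusted p = 0.0935). Srebf2, which encodes the transcription factor SREBP2 itself, had 697, 875 and 947 in WT against 1322, 1282 and 986 in chow, and 908, 966 and 903 in WT against 868, 744 and 764 in HFCF. Its groups did not overlap in either diet, and the interaction was -0.74 ± 0.18 (adjusted p = 0.14). Sqle, squalene epoxidase, which was named after its values were seen, had an interaction of -1.30 (unadjusted p = 0.0453), which ran from -1.66 to -0.74 when each library was left out in turn.

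Genes of bile acid synthesis lay mostly lower in HFCF. Of 18 listed genes 3 fell in HFCF, Cyp8b1, Cyp27a1 and Slc27a2. The median interaction was -0.28, and 16 of 18 interactions were negative. Cyp8b1, the 12-alpha-hydroxylase that sets the share of cholic acid, had overlapping chow values, 10369, 12939 and 10088 in WT and 14444, 12729 and 10049 in livers labelled HuRHep-/-, and separate HFCF values, 12136, 10427 and 11165 in WT against 4458, 7383 and 4485. It fell in HFCF (log2 difference -1.09, adjusted p = 0.00601), with an interaction of -1.24 ± 0.27 (adjusted p = 0.117). Among the 18 tested transport and feedback genes, Slco1b2, a hepatocyte uptake transporter, had an interaction of -0.56 and Slc10a1, the bile salt uptake transporter NTCP, -0.59 (adjusted p = 0.132 and 0.201). Both had HFCF groups that did not overlap and chow groups that did. Markers of pericentral hepatocytes, where much of this synthesis is sited, moved with it. Their summed level was 10413, 12323 and 10692 CPM in HFCF WT and 7017, 6980 and 8285 in HFCF livers labelled HuRHep-/-, beside 12694, 11829 and 12059 in chow WT and 9582, 10553 and 12401 in chow livers labelled HuRHep-/-. Of the 11 markers 3 rose and 0 fell in chow, although their chow sums overlapped. In chow 1 rose without chow HuRHep-/- replicate 1 or 2, and 1 fell without chow HuRHep-/- replicate 3 or HFCF WT replicate 1 or 2. In HFCF 4 fell and 1 rose (2 fell without HFCF WT replicate 2 or HFCF HuRHep-/- replicate 2 and 1 without HFCF HuRHep-/- replicate 1, and 0 rose without HFCF WT replicate 1 or 2 or HFCF HuRHep-/- replicate 1 or 2). Of their interactions 10 were negative, and the part of these markers in the result was not tested. Cyp7a1 and Cyp27a1 stand on both lists, so the lists are not separate observations.

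Ehhadh and Dio1, enzymes of fatty acid and thyroid hormone metabolism, were called in chow and not in HFCF. Ehhadh, the bifunctional enzyme of peroxisomal fatty acid oxidation (chr16:21761287-21787807), had 9083, 8764 and 9412 normalized counts in chow WT, 5624, 6193 and 5377 in chow livers labelled HuRHep-/-, 11176, 10350 and 11550 in HFCF WT and 11310, 10672 and 10166 in HFCF livers labelled HuRHep-/-. The chow groups stood apart and the HFCF groups overlapped. Ehhadh fell in chow (log2 difference -0.67, adjusted p = 0.000859), beside -0.04 in HFCF, with an interaction of 0.63 ± 0.10 (adjusted p = 0.0714). Dio1, the deiodinase that activates thyroxine (chr4:107291465-107307169), had 3454, 3836 and 3529 in chow WT and 5356, 6161 and 7684 in chow livers labelled HuRHep-/-, and the reverse order in HFCF, 5457, 5722 and 5581 against 4589, 4723 and 3678. The groups did not overlap in either diet. Dio1 rose in chow (log2 difference 0.81, adjusted p = 0.00405), while the HFCF difference, opposite in sign and short of 1.5-fold, was -0.38 (adjusted p = 0.0672) and the interaction -1.19 ± 0.17 (adjusted p = 0.0714).

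Slc17a4, a phosphate and organic anion transporter, was also separate in both diets. It had 1373, 1096 and 1155 normalized counts in chow WT and 841, 750 and 668 in chow livers labelled HuRHep-/-, and 1407, 1247 and 1696 against 2019, 2136 and 1773 in HFCF. Its log2 difference went from -0.68 (adjusted p = 0.0115) to 0.45 (adjusted p = 0.0419), an interaction of 1.14 ± 0.18 (adjusted p = 0.0714). Hectd2os, an antisense RNA beside Hectd2 with the smallest interaction p of all genes (1.55e-05), had 3321, 2285 and 2849 in chow WT and 806, 934 and 1061 in chow livers labelled HuRHep-/-. HFCF values overlapped, with 1592, 1936 and 1417 in WT against 1573, 1524 and 1402. The chow fall of 1.59 on the log2 scale had an adjusted p of 0.000492, and the interaction was 1.46 ± 0.21 (adjusted p = 0.0714). Mug2, a protease inhibitor of the alpha-2-macroglobulin family that shares 65.1% of its words with other genes, had an interaction of 0.88, and D630045J12Rik, a gene without a known role here, -0.93 (both adjusted p = 0.0931).

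Of 24 listed lipogenic and fructose genes, 2 fell in chow, 1 rose in HFCF and 2 met the unadjusted interaction threshold. The interaction count was 6 without HFCF WT replicate 1 or HFCF HuRHep-/- replicate 3, 4 without chow HuRHep-/- replicate 1 and 1 without HFCF HuRHep-/- replicate 1. The 2 fallen in chow were 1 without chow WT replicate 3 or any 1 chow HuRHep-/- replicate, and the 1 risen in HFCF was 0 without HFCF WT replicate 2 or HFCF HuRHep-/- replicate 1 or 2. Scd1, the stearoyl-CoA desaturase, had 150136, 175191 and 279208 normalized counts in chow WT and 75420, 77254 and 45551 in chow livers labelled HuRHep-/-, and much higher, overlapping HFCF values, 683325, 627849 and 684508 in WT against 663615, 661453 and 382098. It fell in chow (log2 difference -1.60, adjusted p = 0.00912), and its interaction was 1.33 ± 0.41 (adjusted p = 0.203). Khk, the fructokinase that starts fructose breakdown, had an interaction of 0.46 (adjusted p = 0.184). Cd36, a fatty acid uptake receptor on the lipid droplet list of 15 genes, fell in chow (log2 difference -0.98, adjusted p = 0.0381) beside -0.15 in HFCF, with an interaction of 0.84 (0.52 to 1.11 with 1 library left out). Its list companion Fitm1, which helps droplets form, had 0.38 (0.19 to 0.51). On the list of 35 PPARalpha targets, 4 fell in chow and 6 in HFCF (3 without HFCF HuRHep-/- replicate 1 or 2), and Ehhadh and Cyp4a32 alone met the unadjusted interaction threshold, in opposite senses. The higher count of 1 was 2 without chow WT replicate 2, HFCF WT replicate 3 or HFCF HuRHep-/- replicate 2 and 0 without chow HuRHep-/- replicate 3 or HFCF WT replicate 2, and the lower count of 1 was 2 without chow WT replicate 3 or chow HuRHep-/- replicate 3. Cyp4a32, a fatty acid omega-hydroxylase, fell in HFCF (log2 difference -0.87, adjusted p = 0.0137) beside 0.51 in chow, with an interaction of -1.37 ± 0.26 (adjusted p = 0.0931).

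Acute phase genes were called higher mostly in chow, with a median log2 difference of 0.17 in chow and 0.302 in HFCF. The order of these medians rested on single livers. The chow median was 0.338 without chow HuRHep-/- replicate 3, and the HFCF median was 0.0918 without HFCF WT replicate 1 and 0.151 without HFCF HuRHep-/- replicate 3. Of 40 listed genes, 10 rose and 2 fell in chow, against 3 and 2 in HFCF, and 6 met the unadjusted interaction threshold in the lower direction and 2 in the higher. The chow count of 10 was 6 without chow WT replicate 1 or 3 and 4 without chow HuRHep-/- replicate 1 or 2, and the chow count of 2 fallen was 1 without chow HuRHep-/- replicate 2. The HFCF count of 3 was 5 without chow WT replicate 1 or 3, 7 without chow HuRHep-/- replicate 3 or HFCF WT replicate 3, and 1 without HFCF HuRHep-/- replicate 1, and 11 genes met the lower interaction threshold without chow HuRHep-/- replicate 3. Saa1, a serum amyloid A protein named after its values were seen, had 727, 1889 and 762 normalized counts in chow WT, 17127, 39704 and 6310 in chow livers labelled HuRHep-/-, 2200, 2505 and 5063 in HFCF WT and 4080, 4255 and 6560 in HFCF livers labelled HuRHep-/-. The HFCF WT livers lay above the chow WT livers, and the HFCF groups overlapped. Saa1 rose in chow (log2 difference 4.00, adjusted p = 0.00327) beside 0.68 in HFCF, with an interaction of -3.32 ± 0.82 (adjusted p = 0.14). Saa2, likewise named afterwards, had an interaction of -3.31, and 47.3% of the words of Saa1 occur in other genes, mainly Saa2. Osmr, a receptor for oncostatin M, went the other way, rising in HFCF (log2 difference 0.82, adjusted p = 0.0247) beside -0.38 in chow.

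Hamp2, a copy of the hepcidin gene that controls iron export, reversed. Its promoter is shown beside that of Hamp, the neighbouring copy, because Hamp2 had the smallest interaction p on the acute phase list and Hamp did not meet the unadjusted threshold. The windows are the 250 bases before the RefSeq start (GRCm38.p6, minus strand, chr7:30924182-30924431 for Hamp2 and chr7:30944030-30944279 for Hamp), 5′ to 3′, and capitals mark TTCNNNGAA, a STAT-type motif that reads the same on both strands.
Hamp2: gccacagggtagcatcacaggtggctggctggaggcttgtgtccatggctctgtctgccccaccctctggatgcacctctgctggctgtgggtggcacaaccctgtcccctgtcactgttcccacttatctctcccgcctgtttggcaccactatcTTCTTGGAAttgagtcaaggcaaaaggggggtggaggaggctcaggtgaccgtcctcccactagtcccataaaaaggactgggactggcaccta
Hamp: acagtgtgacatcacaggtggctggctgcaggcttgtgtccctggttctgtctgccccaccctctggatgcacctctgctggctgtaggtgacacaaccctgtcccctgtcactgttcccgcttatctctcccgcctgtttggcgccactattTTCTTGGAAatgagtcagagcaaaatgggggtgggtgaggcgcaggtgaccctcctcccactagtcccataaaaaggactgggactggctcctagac
Both windows hold the motif once, as do 7.02% of all 32851 RefSeq promoter windows cut to the same length, 8 of 35 windows of the acute phase list and 3 of 29 of the male-biased list, and a match of letters is not a bound site. Hamp2 had 499, 503 and 1677 normalized counts in chow WT and 206, 150 and 213 in chow livers labelled HuRHep-/-, and 396, 790 and 633 against 1592, 1216 and 1627 in HFCF. The groups were separate in both diets, their order turned, and chow WT replicate 3 lay far above the other chow WT livers. The log2 difference was -2.00 in chow (adjusted p = 0.0155) and 1.33 in HFCF (adjusted p = 0.0529), and the interaction 3.33 ± 0.57 (adjusted p = 0.0919). Hamp2 shares 31.4% of its words with other genes, mainly Hamp, whose interaction was 0.96 ± 0.81 (SE; unadjusted p = 0.259).

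Other reversed genes included Ndrg1, a stress-regulated differentiation gene, with 425, 272 and 284 normalized counts in chow WT, 192, 211 and 228 in chow livers labelled HuRHep-/-, 188, 184 and 213 in HFCF WT and 263, 310 and 324 in HFCF livers labelled HuRHep-/-. Ndrg1 fell in chow (log2 difference -0.61, adjusted p = 0.0447) and rose in HFCF (log2 difference 0.61, adjusted p = 0.0307), and its interaction was 1.22 ± 0.23 (adjusted p = 0.0931). It is the gene called in both diets with opposite signs. Krt23, a keratin that rises in injured liver and was named after its values were seen, had 262, 212 and 84.1 in chow WT, 43.6, 45.5 and 74.7 in chow livers labelled HuRHep-/-, 166, 191 and 376 in HFCF WT and 505, 446 and 675 in HFCF livers labelled HuRHep-/-. It fell in chow (adjusted p = 0.0362), its HFCF difference of 1.22 had an adjusted p of 0.0732, and the interaction was 2.87 ± 0.58 (adjusted p = 0.109). Serpinh1, the collagen chaperone HSP47 and likewise named afterwards, had an interaction of 1.502 ± 0.33 (adjusted p = 0.125), with groups that did not overlap in either diet.

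**Figure D3:**
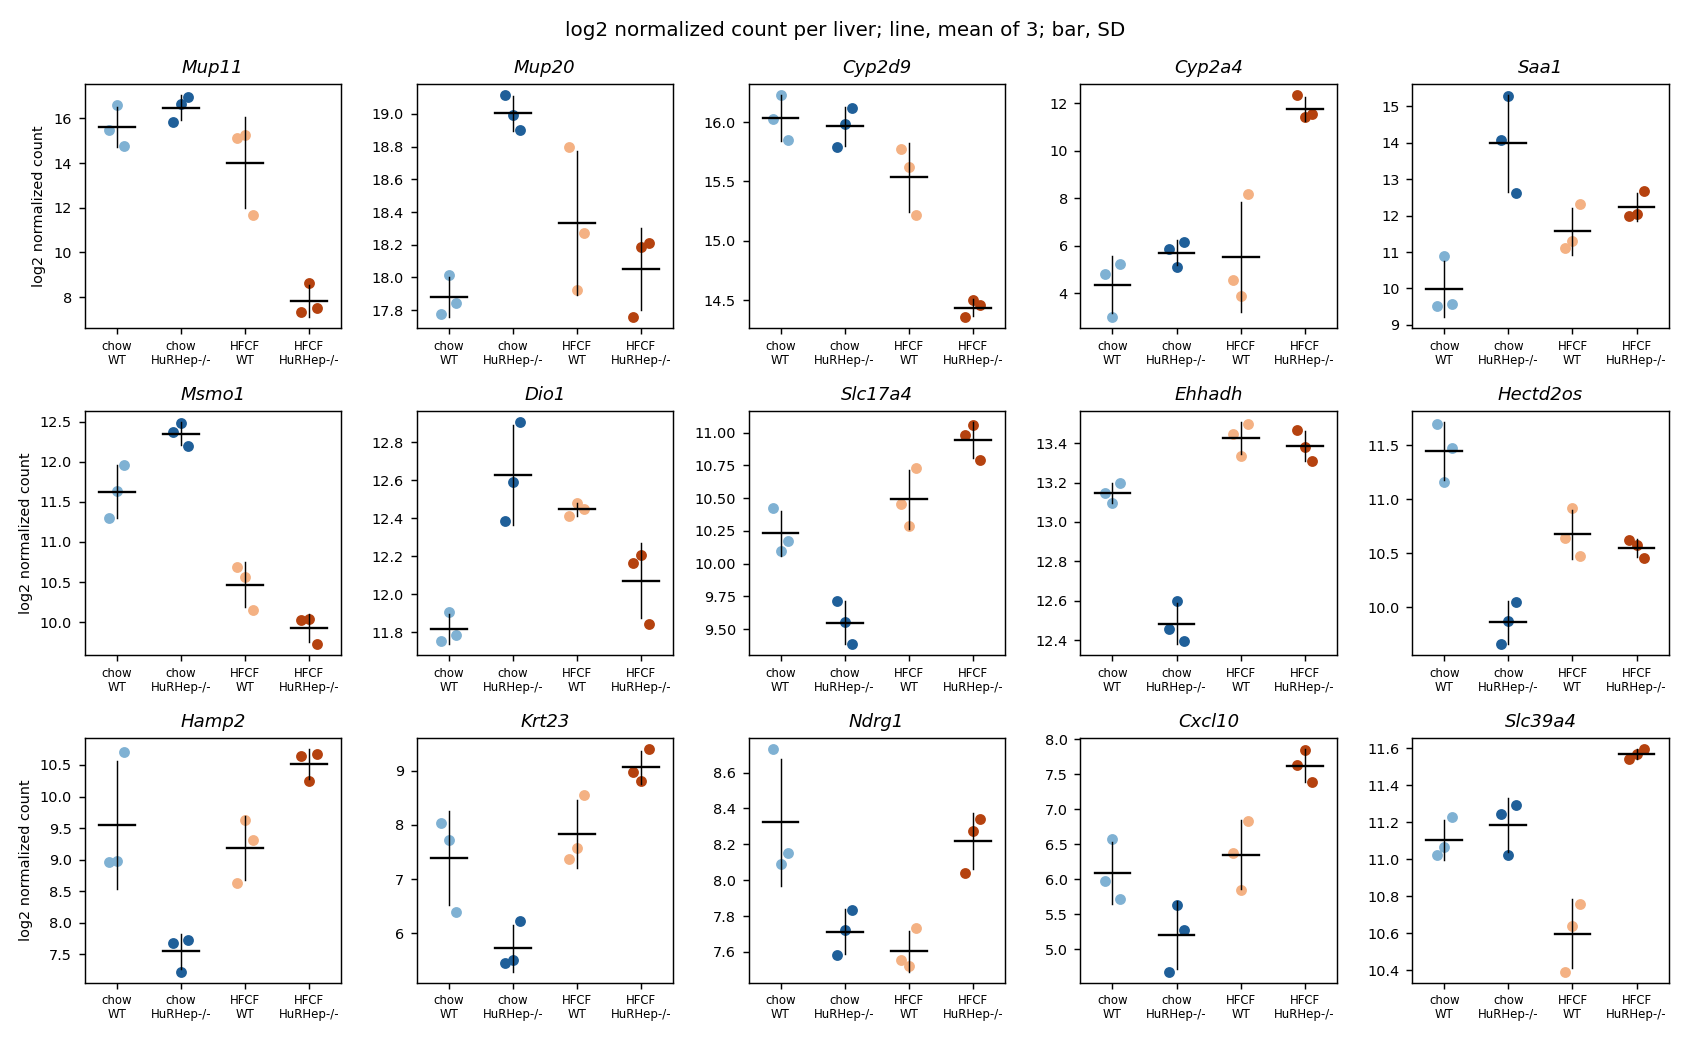
log2 normalized count (y axis) of 15 genes in each of 12 livers, 1 point a liver, with the mean of each group of 3 as a line and its SD as a bar; each gene has its own y axis, which does not start at 0. Mup11 and Cyp2d9 are separated by label in HFCF and overlap in chow, Ehhadh and Hectd2os are separated in chow and overlap in HFCF, and in Msmo1, Dio1, Slc17a4, Hamp2, Krt23, Ndrg1 and Cxcl10 the groups are separated in both diets in opposite order.

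Several genes with small interaction p values had few counts or sequence shared with other genes. Gm49388 had 0 normalized counts in all 3 chow WT livers and 73.3, 113 and 3.16 in chow livers labelled HuRHep-/-, against 81.5, 104 and 11.9 in HFCF WT and 1.68, 0 and 0 in HFCF livers labelled HuRHep-/-. Its exons overlap those of Hsd3b7 and Setd1a on the same strand, 99.5% of its words occur in other genes, and with 0 counts in whole groups no fold is given. Cap2, an actin regulator, had at most 1.14 normalized counts in any chow or HFCF WT liver and 15.1, 11.4 and 11.7 in HFCF livers labelled HuRHep-/-, so that its chow difference rests on single reads. Gm4724, a predicted gene whose words all occur in other genes, had an interaction of -3.81 ± 0.60 (adjusted p = 0.0714).

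A difference also appeared in Slc39a4, the zinc importer ZIP4 (chr15:76612383-76617384). It had 2078, 2141 and 2398 normalized counts in chow WT and 2425, 2078 and 2512 in chow livers labelled HuRHep-/-, overlapping, and 1344, 1596 and 1731 against 2980, 3042 and 3094 in HFCF, far apart. Slc39a4 rose in HFCF (log2 difference 0.97, adjusted p = 0.00037), with an interaction of 0.89 ± 0.14 (adjusted p = 0.0714). Ephb4, an ephrin receptor, had 413, 410 and 418 in HFCF WT and 745, 737 and 696 in HFCF livers labelled HuRHep-/-, the latter within the range of the 6 chow livers. Its HFCF rise was 0.81 on the log2 scale (adjusted p = 0.000233) and its interaction 0.67 ± 0.11 (adjusted p = 0.0714). Tbc1d31, a centrosomal protein, rose by 1.09 in HFCF (adjusted p = 0.00164) beside -0.05 in chow. Interactions in the lower direction included those of Snapin, a vesicle fusion protein (-0.49), Tgfbrap1, an endosomal tethering protein (-0.50), and Gramd1c, a sterol transporter (-0.77), with adjusted p values of 0.0919, 0.0919 and 0.0931.

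Drug-metabolizing enzymes were listed by family, and no test compared the families. Of 22 tested glutathione transferases, 2 fell in chow and none rose, 3 rose in HFCF and none fell, and 5 met the unadjusted interaction threshold, all higher (9 without HFCF WT replicate 3, 10 without HFCF HuRHep-/- replicate 3). The HFCF count of 3 was 1 without HFCF WT replicate 2. The chow count of 2 was 0 without chow WT replicate 1 or chow HuRHep-/- replicate 2 and 1 without chow WT replicate 3 or chow HuRHep-/- replicate 1. The median interaction was 0.46, and 0.254 without HFCF WT replicate 2. Gstp3, a pi-class transferase, had overlapping chow values, 546, 482 and 635 in WT and 498, 482 and 520 in livers labelled HuRHep-/-, and HFCF values of 528, 827 and 636 in WT against 1248, 1176 and 1257. It rose in HFCF (log2 difference 0.91, adjusted p = 0.00312), with an interaction of 1.05 ± 0.20 (adjusted p = 0.0935). Gstm2, a mu-class transferase that shares 19.5% of its words with other genes, rose in HFCF too (log2 difference 1.31, adjusted p = 0.0166) beside -0.29 in chow.

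The Cyp1 to Cyp3 genes had no common direction, with 48 tested, 7 interactions over the unadjusted threshold higher and 4 lower (2 without chow HuRHep-/- replicate 2 or HFCF HuRHep-/- replicate 3), and a median of 0.05 (0.00416 without HFCF WT replicate 1 to 0.112 without HFCF WT replicate 2). In HFCF 4 of them rose and 6 fell. Leaving out any HFCF library but HFCF WT replicate 3 left 1 or 2 risen, and leaving out HFCF HuRHep-/- replicate 2 or 3 left 3 fallen. Cyp2c55, a fatty acid epoxygenase, reversed, with a log2 difference of -0.84 in chow (adjusted p = 0.0652), a rise of 0.88 in HFCF (adjusted p = 0.0382) and an interaction of 1.72 ± 0.35 (adjusted p = 0.109). Among 41 tested glucuronosyltransferases, sulfotransferases and carboxylesterases, 1 rose and 6 fell in chow and 1 rose and 10 fell in HFCF (6 fell without HFCF HuRHep-/- replicate 1). The 1 risen in chow was 0 without any 1 of the 6 chow libraries or HFCF HuRHep-/- replicate 2, and the 1 risen in HFCF was 2 without chow WT replicate 1 and 0 without HFCF HuRHep-/- replicate 1. Of these, 3 interactions were over the unadjusted threshold higher and 5 lower. The higher count was 6 or 7 without chow HuRHep-/- replicate 3, HFCF WT replicate 3 or HFCF HuRHep-/- replicate 3, and the lower was 3 without chow WT replicate 1, chow HuRHep-/- replicate 2 or 3 or HFCF HuRHep-/- replicate 1. Ces2e, a carboxylesterase, fell in chow (6986, 6770 and 7932 in WT against 3358, 3362 and 4136 in livers labelled HuRHep-/-) and overlapped in HFCF (10057, 8227 and 9005 against 7645, 8299 and 7165), with an interaction of 0.76 ± 0.15 (adjusted p = 0.0935). Sult2a8, a bile acid sulfotransferase, fell in HFCF (log2 difference -2.06, adjusted p = 0.00269) beside -0.21 in chow.

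Interferon-stimulated genes, chemokines and antigen presentation lay higher in the interaction. Of 38 interferon-stimulated genes, 37 had a positive HFCF difference and 17 a positive chow difference, 4 were called higher in HFCF and 2 in chow, and 7 met the unadjusted interaction threshold, all higher (15 without chow WT replicate 1). The HFCF count of 4 was 7 without chow WT replicate 2 and 8 without chow HuRHep-/- replicate 3, 1 without HFCF WT replicate 1, and 0 without HFCF WT replicate 2 or HFCF HuRHep-/- replicate 1 or 2. The chow count of 2 was 0 without chow WT replicate 1 or 3 or chow HuRHep-/- replicate 1 or 2, and 1 without HFCF WT replicate 1 or 3 or HFCF HuRHep-/- replicate 1 or 2. Cxcl10, a chemokine that draws T cells, had 63.1, 95.7 and 52.7 normalized counts in chow WT, 25.7, 49.8 and 38.9 in chow livers labelled HuRHep-/-, 83.3, 57.3 and 114 in HFCF WT and 199, 231 and 167 in HFCF livers labelled HuRHep-/-. The groups were separate in both diets in opposite order. It rose in HFCF (log2 difference 1.27, adjusted p = 0.0237), with -0.88 in chow (adjusted p = 0.109) and an interaction of 2.15 ± 0.43 (adjusted p = 0.109). Cxcl9, a related chemokine, had an interaction of 1.51 ± 0.39 (adjusted p = 0.153). Ccl4, a macrophage chemokine, had 4.51, 6.84 and 5.61 in chow WT, 0.99, 1.06 and 1.05 in chow livers labelled HuRHep-/-, 13.4, 5.21 and 33.5 in HFCF WT and 33.7, 42.9 and 28.9 in HFCF livers labelled HuRHep-/-. With 1 read in each chow liver labelled HuRHep-/-, no fold is given. Of 33 tested chemokines and receptors, 7 met the threshold higher and 1 lower.

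All 17 listed antigen presentation genes were tested, 16 interactions were positive and 5 met the unadjusted threshold, with a median of 0.31 (0.177 among genes with at least 10 counts in every library, and 0.156 without chow WT replicate 2). H2-Aa, an MHC class II chain of antigen-presenting cells, had 761, 1440 and 1124 normalized counts in chow WT, 634, 838 and 554 in chow livers labelled HuRHep-/-, 1716, 926 and 2479 in HFCF WT and 3634, 2578 and 3259 in HFCF livers labelled HuRHep-/-. Its HFCF groups did not overlap and its chow groups did, and the interaction was 1.67 ± 0.45 (adjusted p = 0.173). H2-DMb1, which helps load peptides and shares 37.6% of its words with other genes, had 1.59 ± 0.48 (adjusted p = 0.2). In whole liver, more cells of a type and more RNA per cell cannot be told apart. Markers of T and NK cells summed to 8.74, 8.67 and 8.68 CPM in HFCF WT and 11.4, 15 and 11.5 in HFCF livers labelled HuRHep-/-, against 8.12, 7.4 and 8.04 in chow WT and 5.18, 9.12 and 7.55 in chow livers labelled HuRHep-/-. Of the 15 tested, 2 were called higher in HFCF and 6 met the unadjusted interaction threshold, all higher, and their part in the chemokine and antigen presentation values was not tested. Pan-macrophage markers, which mark antigen-presenting cells too, summed to 419, 364 and 620 CPM in HFCF WT and 782, 618 and 651 in HFCF livers labelled HuRHep-/-, overlapping, against 222, 296 and 222 in chow WT and 291, 380 and 253 in chow livers labelled HuRHep-/-. All 12 of their interactions were above 0, with a median of 0.34 (0.109 without HFCF WT replicate 2 to 0.584 without HFCF WT replicate 3), and none was called or met the unadjusted threshold. Their part was likewise not tested. For the T and NK cell markers the HFCF count of 2 was 1 without chow WT replicate 1 or 3 or HFCF WT replicate 1, and 0 without HFCF WT replicate 2 or any 1 HFCF HuRHep-/- replicate.

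Matrix genes lay higher in HFCF livers labelled HuRHep-/-. Of 63 listed collagen and remodelling genes 52 were tested, 9 rose in HFCF and 1 in chow, and 12 met the unadjusted interaction threshold higher and 2 lower, with a median interaction of 0.796 (0.44 without HFCF WT replicate 2). These counts depended on single livers. The 12 became 7 without chow HuRHep-/- replicate 3, HFCF WT replicate 2 or HFCF HuRHep-/- replicate 3 and 22 without HFCF WT replicate 3. The 2 became 1 without chow WT replicate 1 or 3, chow HuRHep-/- replicate 3 or HFCF HuRHep-/- replicate 2, and 0 without chow HuRHep-/- replicate 1 or 2, HFCF WT replicate 2 or 3 or HFCF HuRHep-/- replicate 1. The 1 in chow became 2 without HFCF HuRHep-/- replicate 1. The 9 became 14 without chow HuRHep-/- replicate 3, 15 without HFCF WT replicate 3, 4 without HFCF WT replicate 2 or HFCF HuRHep-/- replicate 2, 2 without HFCF HuRHep-/- replicate 3 and 1 without HFCF HuRHep-/- replicate 1. Col8a1, a network-forming collagen, had 12.4, 28.5 and 8.97 normalized counts in chow WT, 12.9, 19.1 and 14.7 in chow livers labelled HuRHep-/-, between 9.38 and 15.1 in HFCF WT and 63.1, 53.4 and 37 in HFCF livers labelled HuRHep-/-. It rose in HFCF (log2 difference 2.00, adjusted p = 0.0112), and its interaction was 1.94 ± 0.57 (adjusted p = 0.193). Fbn1, the microfibril protein fibrillin, rose in HFCF (log2 difference 1.25, adjusted p = 0.0227) beside -0.16 in chow, with an interaction of 1.41 ± 0.42.

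Markers of other liver cells moved with these genes, and their part was not tested. Stellate cells, which make most of the matrix, had marker sums of 312, 312 and 342 CPM in chow WT, 290, 340 and 251 in chow livers labelled HuRHep-/-, 444, 355 and 555 in HFCF WT and 520, 514 and 555 in HFCF livers labelled HuRHep-/-. The HFCF groups overlapped, 4 of the 15 markers rose in HFCF, and 5 met the unadjusted interaction threshold, all higher. The 4 became 2 without chow WT replicate 3, 1 without HFCF WT replicate 1 or any 1 HFCF HuRHep-/- replicate and 0 without HFCF WT replicate 2, and the 5 became 3 without chow WT replicate 2 and 9 without HFCF WT replicate 3. Cholangiocyte markers were further apart, at 108, 58.4 and 103 CPM in HFCF WT and 187, 155 and 267 in HFCF livers labelled HuRHep-/-, beside 51.5, 98.3 and 67.3 in chow WT and 109, 129 and 67.6 in chow livers labelled HuRHep-/-. Of the 10 tested, 7 rose in HFCF and 7 met the unadjusted interaction threshold higher and 1 lower. The HFCF count of 7 became 1 without HFCF WT replicate 2 or HFCF HuRHep-/- replicate 1 or 3, and the interaction count of 7 became 4 without chow WT replicate 2 or 3, chow HuRHep-/- replicate 3 or HFCF WT replicate 2 and 3 without HFCF HuRHep-/- replicate 3. Recruited or lipid-associated macrophage markers summed to 233, 98.4 and 295 in HFCF WT and 402, 326 and 538 in HFCF livers labelled HuRHep-/-. Chow sums were 99.5, 160 and 134 in WT and 229, 188 and 146 in livers labelled HuRHep-/-. Of the 15, 3 rose in HFCF (9 without HFCF WT replicate 3, 1 without HFCF HuRHep-/- replicate 2 or 3, 0 without HFCF HuRHep-/- replicate 1). Their median interaction was 0.425 (-0.159 without HFCF WT replicate 2, 0.767 without HFCF WT replicate 3). Spp1 stands on this list and the cholangiocyte list, so their sums are not separate, and a rise in either cannot be assigned to 1 cell type. Resident Kupffer cell markers overlapped across all 4 groups, between 436 and 675 CPM.

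Of 14 tested hepatocyte markers none met the unadjusted interaction threshold (1 without HFCF WT replicate 2). They summed to 143656, 117801 and 139965 CPM in chow WT, 100043, 107191 and 108932 in chow livers labelled HuRHep-/-, 81928, 93678 and 81697 in HFCF WT and 75630, 76964 and 80089 in HFCF livers labelled HuRHep-/-. The chow groups, like the HFCF groups, did not overlap in the sum. RNA of the 13 mitochondrially encoded genes, a guide to RNA quality and input, met no threshold, with a median interaction of -0.03. Mesothelial markers, which come from the liver capsule, had a median interaction of 2.33 (1.16 without chow HuRHep-/- replicate 3) over 5 genes and 1 over the unadjusted threshold, with sums between 0.371 and 19.3 CPM. In 1 marker each of 5 tested neutrophil and 11 resident Kupffer cell markers the interaction met the threshold lower, and the neutrophil markers Mpo, Ltf and Camp had 0 counts in at least 6 libraries. The Kupffer cell marker was C6, which is also on the male-biased list above. No marker of B and plasma cells, sinusoidal endothelium, erythroid cells, periportal hepatocytes, adipocytes, acinar cells or the pan-macrophage list met it with all libraries. Without HFCF WT replicate 3 the pan-macrophage list had 3 over it and 9 genes called higher in HFCF, against 0 and 0 with all libraries. The neutrophil list as a whole had 4 of 5 interactions above 0, with a median of 0.67 (0.384 without chow HuRHep-/- replicate 3, 0.39 without chow WT replicate 3), and sums of 2.22, 3.05 and 2.54 CPM in chow WT, 3.32, 4.14 and 2.51 in chow livers labelled HuRHep-/-, 4.16, 2.85 and 4.16 in HFCF WT and 6.31, 5.58 and 5.3 in HFCF livers labelled HuRHep-/-, separate in HFCF only. Its count of 1 lower held without chow WT replicate 2 or 3, chow HuRHep-/- replicate 1 or HFCF WT replicate 2 and was 0 without any other library. The mesothelial count of 1 was 2 without chow WT replicate 1, 3 without chow HuRHep-/- replicate 1 or 2, and 0 without chow WT replicate 2 or 3, HFCF WT replicate 2 or 3 or HFCF HuRHep-/- replicate 2 or 3. The Kupffer cell count of 1 lower and the B and plasma cell count of 0 were each 2 without chow WT replicate 1.

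**Figure D4:**
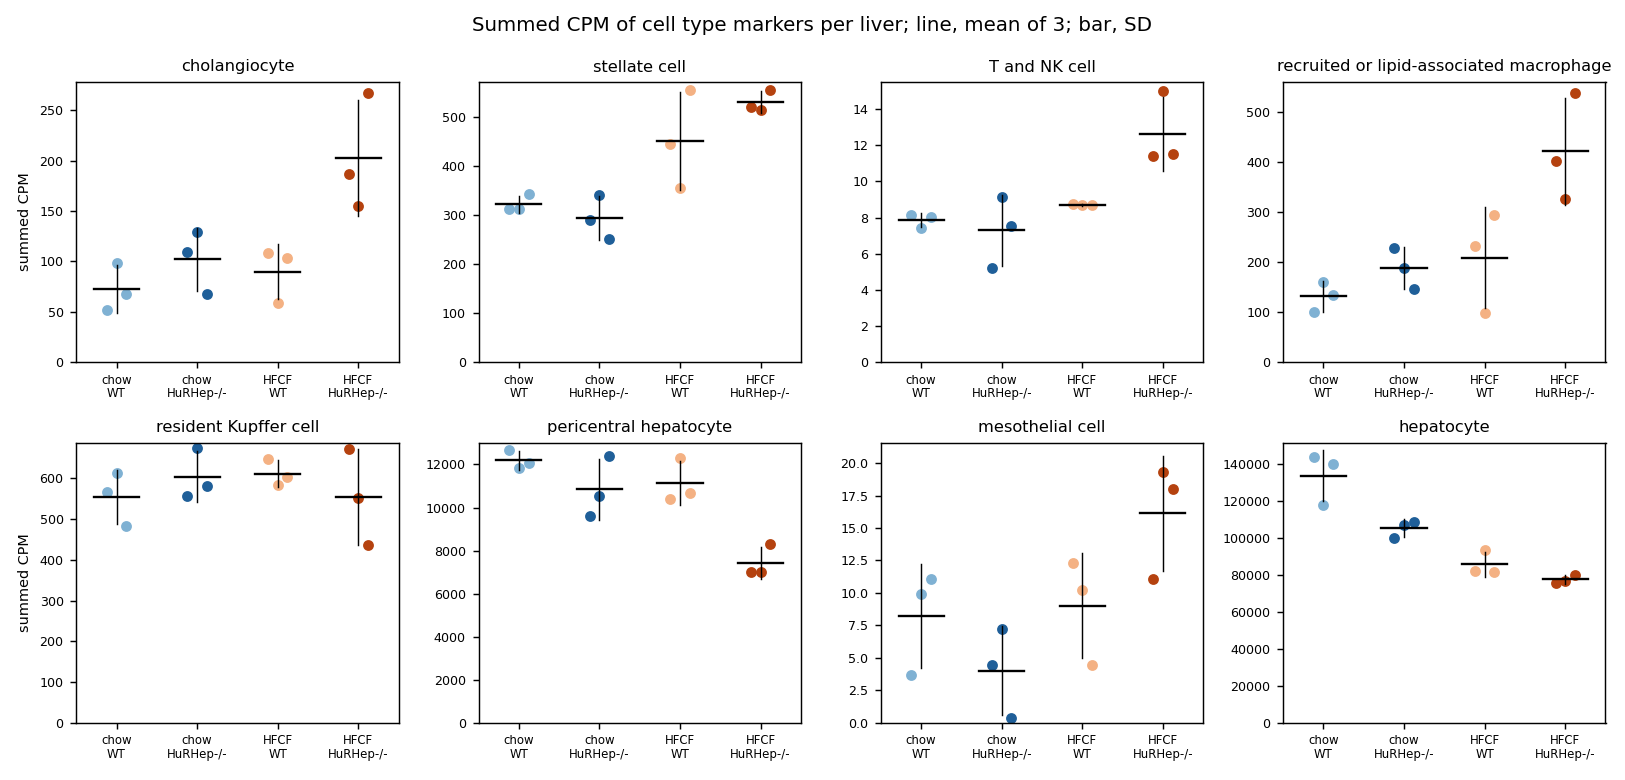
Summed CPM (y axis, from 0) of 8 lists of cell type markers in each of 12 livers, 1 point a liver, with the mean of each group of 3 as a line and its SD as a bar. Cholangiocyte sums reach 187, 155 and 267 in HFCF livers labelled HuRHep-/-, above every other liver, while stellate cell sums overlap between the HFCF groups and pericentral hepatocyte sums are lowest in the same 3 livers.

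Cell cycle genes lay higher in HFCF livers labelled HuRHep-/-, and little of it was set apart from chow. Of 39 tested, 29 had a positive difference in chow and 37 in HFCF, 10 rose in HFCF and 0 in chow, and 3 met the unadjusted interaction threshold. The 10 became 5 without HFCF WT replicate 1, 4 without HFCF WT replicate 2, 16 without HFCF WT replicate 3 and 2 without HFCF HuRHep-/- replicate 1. The 0 in chow became 2 without HFCF WT replicate 2 and 1 without chow HuRHep-/- replicate 3. The 3 became 12 without HFCF WT replicate 3, 0 without HFCF HuRHep-/- replicate 1, 7 without HFCF HuRHep-/- replicate 2 and 6 without HFCF HuRHep-/- replicate 3. Pcna, the DNA polymerase clamp, had an interaction of 0.57 and Mcm7, a helicase subunit, 0.54 (adjusted p = 0.184 and 0.244).

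Ribosomal protein genes had interactions of nearly uniform sign. Of 76 tested, 75 interactions were positive, with a median of 0.27, 74 had a negative difference in chow and 67 a positive one in HFCF, and none met both the unadjusted p and the 1.5-fold limit. Rps12, which was named after its values were seen, alone had a negative interaction (-1.001 ± 1.70, unadjusted p = 0.567). Rpl10a, a protein of the large subunit, had 8681, 7835 and 8339 normalized counts in chow WT and 6298, 6206 and 6389 in chow livers labelled HuRHep-/-, separate, and 5218, 5347 and 5129 in WT against 5322, 4814 and 5555 in HFCF, overlapping, with an interaction of 0.39 ± 0.09 (adjusted p = 0.135). Rplp1, an acidic stalk protein, had 0.42 ± 0.11 (adjusted p = 0.16). Ribosomal protein genes share sequence with pseudogenes, 27.6% and 75.1% of words in these 2.

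**Figure D5:**
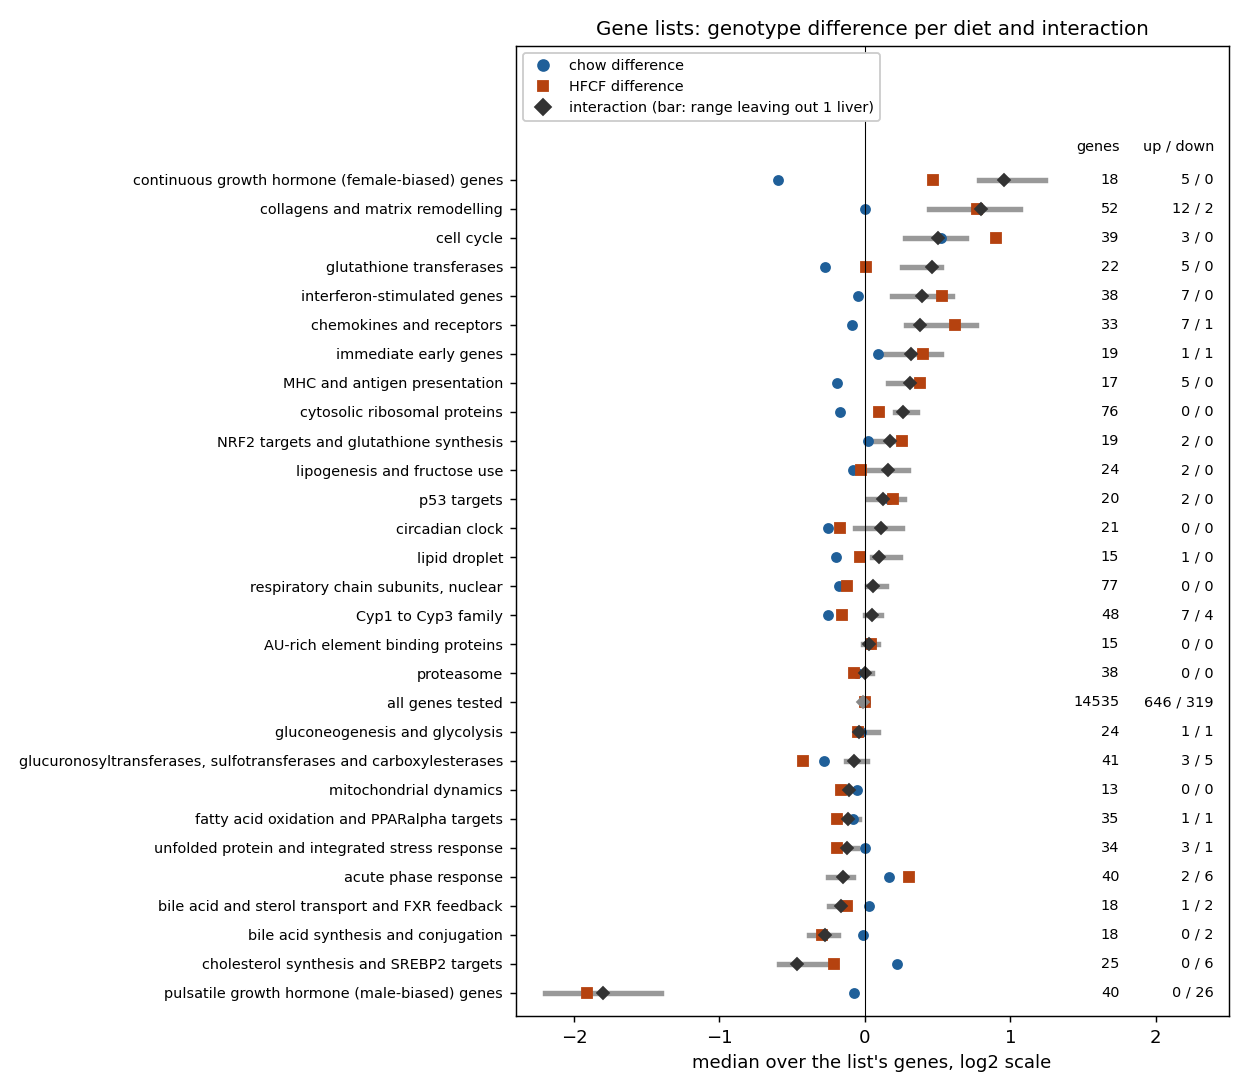
For 28 gene lists and all genes tested, the median log2 difference on chow (circles) and HFCF (squares) and the median interaction (diamonds), with a bar for its range when each of 12 livers is left out in turn; at the right, the genes tested and how many met the unadjusted interaction threshold with 1.5-fold, up and down. Male-biased genes lie lowest at -1.8, female-biased genes and collagens highest at 0.96 and 0.796, and most other lists lie close to 0. The list drawn as AU-rich element binding proteins also holds binders of other RNA elements.

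The remaining lists held few genes over the unadjusted threshold. Lists with 0 such genes were mitochondrial dynamics (13 tested), nuclear-encoded respiratory chain subunits (77), the proteasome (38), RNA-binding proteins of AU-rich, GU-rich or pyrimidine-rich elements (15) and the circadian clock (21). Their median interactions ran from -0.11 to 0.11, and from -0.135 to 0.252 when any 1 library was left out. Opa1, a fusion protein of the inner mitochondrial membrane, had -0.33 and Mtfr1, a fission regulator, -0.28. Uqcr11 of complex III had 0.26 and Sdhd of complex II -0.25, and the proteasome subunits Psmc6 and Psmd6 had -0.23 and -0.19. Among the RNA-binding proteins, Pcbp2, which binds C-rich RNA, lay lower in both diets short of 1.5-fold, with log2 differences of -0.39 (adjusted p = 0.00381) and -0.23 (adjusted p = 0.0298) and an interaction of 0.16, and Celf1, which binds GU-rich RNA, had -0.14. The clock genes Cry2 and Dbp had -0.30 and 0.42. With each library left out in turn, the interaction of Cry2 ran from -0.47 to -0.16, that of Dbp from 0.15 to 0.58, that of Sdhd from -0.32 to -0.16 and that of Celf1 from -0.18 to -0.08.

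Stress and redox lists were likewise thin. Of 34 genes of the unfolded protein and integrated stress response 3 lay over the unadjusted threshold higher and 1 lower, and the 3 became 1 without chow WT replicate 1 or 3, chow HuRHep-/- replicate 1, HFCF WT replicate 2 or HFCF HuRHep-/- replicate 3. Sdf2l1, an endoplasmic reticulum chaperone cofactor, had -1.03 ± 0.23 with groups separate in both diets, and Dnajc3, another cochaperone, -0.42. Of 20 p53 targets 2 lay higher, which became 4 without chow HuRHep-/- replicate 1 or HFCF WT replicate 1 or 3, 3 without chow WT replicate 1, 1 without chow WT replicate 3 or HFCF HuRHep-/- replicate 1 or 2, and 0 without chow WT replicate 2, chow HuRHep-/- replicate 3, HFCF WT replicate 2 or HFCF HuRHep-/- replicate 3. Ak1, an adenylate kinase, rose in HFCF (log2 difference 1.67, adjusted p = 0.0305) with an interaction of 1.60, and Sesn1, a stress sensor of nutrient signalling, had -0.34. Of 19 NRF2 and glutathione genes 2 lay higher, Cbr3, a carbonyl reductase, at 1.83 (1.17 to 2.26 with 1 library left out) and G6pdx, the first enzyme of the pentose phosphate pathway, at 0.89 (0.58 to 1.08). That count was 0 without chow WT replicate 3, chow HuRHep-/- replicate 3 or HFCF WT replicate 2, 1 without chow WT replicate 2 or HFCF HuRHep-/- replicate 1, and 4 without HFCF HuRHep-/- replicate 3. Of 24 glycolytic and gluconeogenic genes 1 lay higher, the pyruvate kinase Pkm at 0.87 (0.58 to 1.12 with 1 library left out), and 1 lower, the coactivator Ppargc1a at -0.99 (-1.25 to -0.65). The higher count was 0 without chow or HFCF WT replicate 2, and the lower count 0 without chow WT replicate 2, chow HuRHep-/- replicate 1, HFCF WT replicate 3 or HFCF HuRHep-/- replicate 1. Of 19 immediate early genes Ier3 lay higher at 0.85 and Fosb lower at -2.42. The higher count was 4 without HFCF WT replicate 1, 2 without chow WT replicate 2, chow HuRHep-/- replicate 1 or HFCF WT replicate 3, and 0 without chow HuRHep-/- replicate 2, HFCF WT replicate 2 or HFCF HuRHep-/- replicate 2. The lower count was 0 without chow WT replicate 3, chow HuRHep-/- replicate 2, HFCF WT replicate 1 or 3 or HFCF HuRHep-/- replicate 1 or 3.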

How the data were processed

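Liver RNA was sequenced from stranded libraries. The values that the authors deposited, 1 table per diet, are unnormalized read counts per gene from CLC Genomics Workbench with GRCm38.p6. They are text with comma separators, hence not recorded as plain counts, and no count model was fitted. Tables were joined on gene identifier (20093 genes in both, 682 only in chow, 2616 only in HFCF). A gene was tested if at least 3 libraries held what 10 counts are in a library of median size, and all libraries together 15. log2 CPM (TMM factors, trims 0.3 and 0.05, pseudocount 0.5) of all 12 libraries were fitted in R 4.3.3 with limma 3.58.1, with a variance trend and Benjamini-Hochberg adjustment over all 14535 genes. Calls within a diet also needed 10 counts in each group. Members, lists and tests were chosen with earlier results of these data known. Named genes are Elavl1, the 10 smallest interaction p values in each direction, the 2 smallest of each list, and genes said to be named afterwards. Genes given only as called, or only as a copy or neighbour of a named gene, were also named after the values were seen. Nothing says whether the 3 mice of a group shared a litter or cage, so p-values measure only the spread between these samples. An exact permutation test of 3 against 3 mice cannot go below 0.1. Fold changes on the pseudocount scale understate changes of low genes. Steps were tested on simulated data. Shared sequence is the share of words of 31 bases of a gene's longest GENCODE transcript (vM21, GRCm38) that occur in other genes. Alternatives were RLE, upper-quartile and within-table scaling, other filters, pseudocount 2, voom weights, the replicate number as a block and leaving out each library; the adjusted p of 0.1, the unadjusted threshold and the alternatives of lists were added after the data were seen.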

Additional observations from a re-analysis of the deposited data

Results flagged for a closer look

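Krt20, a keratin of the gut and urinary tract lining, is listed in the HFCF table alone and so has no interaction. It was singled out as the gene outside the joined table with at least 10 raw counts in each liver labelled HuRHep-/- and more than in every WT liver of the same diet, a rule chosen after the data were seen. Its raw counts were 0, 0 and 3 in HFCF WT and 51, 18 and 21 in HFCF livers labelled HuRHep-/-, a mean of 30 in the latter. Chow values were not analysed here.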

How the results depend on the processing

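The interaction count of 0 stayed 0 with RLE, upper-quartile and within-table scaling, pseudocount 2, at least 10 counts in every library, no fold limit and genes of either table, and became 1 without the filter on low counts, 1 with voom weights, 32 at an adjusted p of 0.1, and 0 to 40 when 1 library was left out (40 without HFCF WT replicate 3). Whether replicate numbers pair the livers cannot be told from 6 correlations. Same-number deviations correlated at -0.03 to 0.19, with 4 of 6 highest for their own number, among them HFCF replicates 1, 2 and 3 (0.088, 0.19 and 0.087). The replicate block gave 0 called genes, 2221 at an unadjusted p of 0.05 and 978 with 1.5-fold, against 965 without the block. Leaving out 1 library gave 191 to 482 calls in chow (402 with all) and 289 to 1088 in HFCF (754 with all), 727 to 1269 genes over the unadjusted threshold, and 16 to 40 reversed, 307 to 751 appearing and 163 to 236 vanishing. Genes counted as reversed were 25, against 40 without the filter and 11 with 10 counts in every library. The cause of these changes was not tested, beyond the number of genes and samples each setting holds. For named genes, 2082 of 2123 alternative values kept their sign and side of the threshold, 27 passed it and 14 changed sign: Elavl1 at 0.016 with upper-quartile scaling and between -0.045 and 0.043 without 1 library, and without 1 library Bcl6 (-1.46 to 0.48), Cux2 (-1.01 to 0.80) and Igf1 (-0.015 to 0.15). With 3 livers a group, the median SE of an interaction was 0.20 on the log2 scale. Even Hectd2os, at 1.46 ± 0.21 (SE), missed the adjusted threshold by limma (adjusted p = 0.0714). Differences between diets well above that median SE could therefore go undetected.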

Other observations

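H19 and Igf2, imprinted neighbours that are active in the fetal liver and mostly silent in the adult, are on none of the lists and were named after their values were seen. H19 had 3.38, 5.7 and 7.85 normalized counts in chow WT, 40.6, 25.4 and 8.42 in chow livers labelled HuRHep-/-, 33.1, 10.4 and 77.9 in HFCF WT and 847, 933 and 2063 in HFCF livers labelled HuRHep-/-. Every liver labelled HuRHep-/- lay above every WT liver of its diet, and the gap was wider in HFCF. H19 rose in HFCF (log2 difference 5.26, adjusted p = 0.00148) beside 1.84 in chow, and its interaction was 3.42 ± 0.99 (adjusted p = 0.188). Igf2, a fetal growth factor that shares 76% of its words with an overlapping gene model, had 15.8, 11.4 and 14.6 in chow WT, 14.9, 15.9 and 9.47 in chow livers labelled HuRHep-/-, 18.8, 10.4 and 28.1 in HFCF WT and 130, 75.2 and 88.4 in HFCF livers labelled HuRHep-/-. Its chow groups overlapped, it rose in HFCF (log2 difference 2.39, adjusted p = 0.00299), and its interaction was 2.47 ± 0.52 (adjusted p = 0.112).

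Genes of growth hormone signalling itself, like all genes tested, had interactions over no adjusted threshold. Ghr, the receptor, had a log2 difference of -0.25 in chow and -0.42 in HFCF, and Stat5b, its transcription factor, 0.15 and -0.21, with interactions of -0.17 (95% interval -0.48 to 0.14) and -0.36 (-0.66 to -0.07). The interval of Stat5b, not adjusted over genes, was negative at both ends. Igf1, a classic growth hormone target on the male-biased list, had an interaction of 0.05 (-0.27 to 0.36). The interactions of the feedback inhibitors Socs2 and Cish were 0.75 and 1.45, and those of the repressors Bcl6 and Cux2 -0.56 and -0.31, all with unadjusted p values between 0.208 and 0.802. With each library left out in turn, the interaction of Ghr ran from -0.26 to -0.07, that of Igf1 from -0.02 to 0.15, that of Socs2 from 0.34 to 1.18, that of Cish from 0.68 to 2.15, that of Bcl6 from -1.46 to 0.48 and that of Cux2 from -1.01 to 0.80. These genes were named after their values were seen.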
